A study of Mus musculus with 6 samples.

Results

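Genes of T and B lymphocytes were examined in the lungs of mouse embryos that lack Dppa2. The set held 33 genes, listed by symbol: 18 of the T lineage, 4 that serve antigen receptor recombination or lymphocyte precursors, and 11 of the B lineage. Of these, 30 were matched through the accession on the array to 42 probes, out of 18217 genes with a symbol. Ptcra, the invariant partner of the T cell receptor in precursors, Cd8b1, a chain of the Cd8 coreceptor, and Igll1, a surrogate light chain, were not matched and were not analysed here. In 19 of the 33 a probe was bright enough to be tested.

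The knockout group was 3 embryos of genotype 15-1Flox/Flox, 15-2-/-, and the wild type group was 3 embryos of genotype 15-1+/+, 15-2+/+, all at E18.5, shortly before birth. ECAT15-2 is Dppa2 and ECAT15-1 is Dppa4, a pair of related nuclear proteins known from pluripotent cells, and every knockout embryo carried floxed Dppa4 alleles as well as the Dppa2 null alleles. Per the labels, the parents carried a floxed allele of the first gene and a null allele of the second, on a mixed background that started from 129Sv stem cells and was crossed to C57/BL6 and to a Cre or FLPe line of unknown background. RNA of each whole lung went to a separate 1-colour Agilent array, so the signal sums all cells of the lung and the blood within it, and any thymus or lymph node tissue left on it.

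T and B lymphocytes arise from shared precursors that rearrange their antigen receptor genes with the Rag1 and Rag2 recombinase. T cells mature in the thymus, where they carry the Cd3 complex with the coreceptors Cd4 and Cd8. B cells before birth are made in the fetal liver, where precursors display a surrogate light chain before they make a full receptor with the signalling chains Cd79a and Cd79b. The lung of a mouse before birth is not known as a site where either cell is made.

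Promoter windows are shown for the 3 B lineage genes and the receptor gene that differed most among the members with a window in the table, and for Vpreb1, a B lineage gene whose groups overlapped. Each window runs from 250 bases before to 50 bases after the start of the gene in RefSeq on GRCm38.p6, 5′ to 3′ along the gene. Capitals mark the octamer ATGCAAAT, which POU factors and their B cell coactivator Pou2af1 bind, and the E-box CAGNTG, which E proteins bind, on either strand.
Il7r, chr15:9529827-9530126, minus strand: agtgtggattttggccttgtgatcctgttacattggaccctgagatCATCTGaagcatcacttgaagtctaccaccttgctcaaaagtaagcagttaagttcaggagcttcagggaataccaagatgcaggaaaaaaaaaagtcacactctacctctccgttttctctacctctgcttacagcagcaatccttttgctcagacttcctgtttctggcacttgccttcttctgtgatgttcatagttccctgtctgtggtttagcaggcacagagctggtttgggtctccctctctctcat
Vpreb3, chr10:75948050-75948349, plus strand: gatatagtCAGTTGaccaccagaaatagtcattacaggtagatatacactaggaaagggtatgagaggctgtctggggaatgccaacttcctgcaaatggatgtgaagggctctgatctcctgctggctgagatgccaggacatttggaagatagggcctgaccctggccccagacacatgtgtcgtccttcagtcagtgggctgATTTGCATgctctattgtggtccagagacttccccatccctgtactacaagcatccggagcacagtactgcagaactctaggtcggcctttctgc
Pou2af1, chr9:51213440-51213739, plus strand: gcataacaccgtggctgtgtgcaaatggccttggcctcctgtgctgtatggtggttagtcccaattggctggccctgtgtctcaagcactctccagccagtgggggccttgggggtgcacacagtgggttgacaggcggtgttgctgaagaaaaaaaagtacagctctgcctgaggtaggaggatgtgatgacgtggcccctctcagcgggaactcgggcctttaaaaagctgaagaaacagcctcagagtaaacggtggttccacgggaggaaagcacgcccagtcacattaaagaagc
Blnk, chr19:40994172-40994471, minus strand: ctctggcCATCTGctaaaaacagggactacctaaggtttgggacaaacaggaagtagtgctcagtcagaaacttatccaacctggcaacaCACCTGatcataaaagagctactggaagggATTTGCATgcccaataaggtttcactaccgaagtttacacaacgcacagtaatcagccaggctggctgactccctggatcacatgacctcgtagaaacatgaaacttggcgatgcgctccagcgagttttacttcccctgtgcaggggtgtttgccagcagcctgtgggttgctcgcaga
Vpreb1, chr16:16869206-16869505, minus strand: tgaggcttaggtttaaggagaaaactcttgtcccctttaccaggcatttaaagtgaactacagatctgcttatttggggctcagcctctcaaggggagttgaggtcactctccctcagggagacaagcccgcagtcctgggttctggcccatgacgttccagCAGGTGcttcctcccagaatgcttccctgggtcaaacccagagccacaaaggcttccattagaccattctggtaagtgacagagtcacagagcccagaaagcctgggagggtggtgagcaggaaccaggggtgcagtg

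The octamer stood in the Vpreb3 and Blnk windows, where it reads ATTTGCAT on the strand shown, thus in 2 of the 36 windows of the 26 members that have one, both of them B lineage. It occurs in 1.74% of the 32851 windows in the table. The E-box stood in the Il7r, Vpreb3, Blnk and Vpreb1 windows and occurs in 51.4% of all windows. The motif CCCNNGGG, a core that EBF factors bind, stood in 5 of the 36 windows of members, in none of the 5 printed, and in 13.7% of all windows. No 2 of these motifs overlapped in the printed windows. A match is a match of letters only.

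On each array 63.3% to 68.8% of the probes lay well above background. Wild type arrays 1 and 2 stood apart. They read 4 Y-linked genes (Uty, Ddx3y, Kdm5d, Eif2s3y) above background and Xist at background, whereas the other arrays read the reverse, and they shared a slide with knockout 3. The SD of log2 differences over genes was 0.302 between these arrays and 0.386 to 0.623 for every other pair. The 0.386 was that between wild type 3 and knockout 3. Wild type 3 lay further from wild types 1 and 2 (0.424 and 0.421). Dppa2 had log2 levels of -4.94, -4.98 and -4.08 in the knockout lungs and of -3.25, -3.52 and -3.57 in the wild type lungs (limma adjusted p = 0.0604), and Dppa4 was below background on all 6 arrays. The Dppa2 probe lay above background on all 3 knockout and all 3 wild type arrays. Whether that probe lies in the deleted part is not known here. Lung identity was plain on all arrays, with all 10 lung epithelial markers tested.

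Levels are log2 intensities relative to the 75th percentile of the array, so a level of 0 is that percentile, and levels of different probes are not comparable. The lowest spot called well above background lay between -6.86 and -5.79, and the highest of these floors belonged to knockout 1. A gene was tested when every knockout array or every wild type array read its probe well above background.

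**Figure D1:**
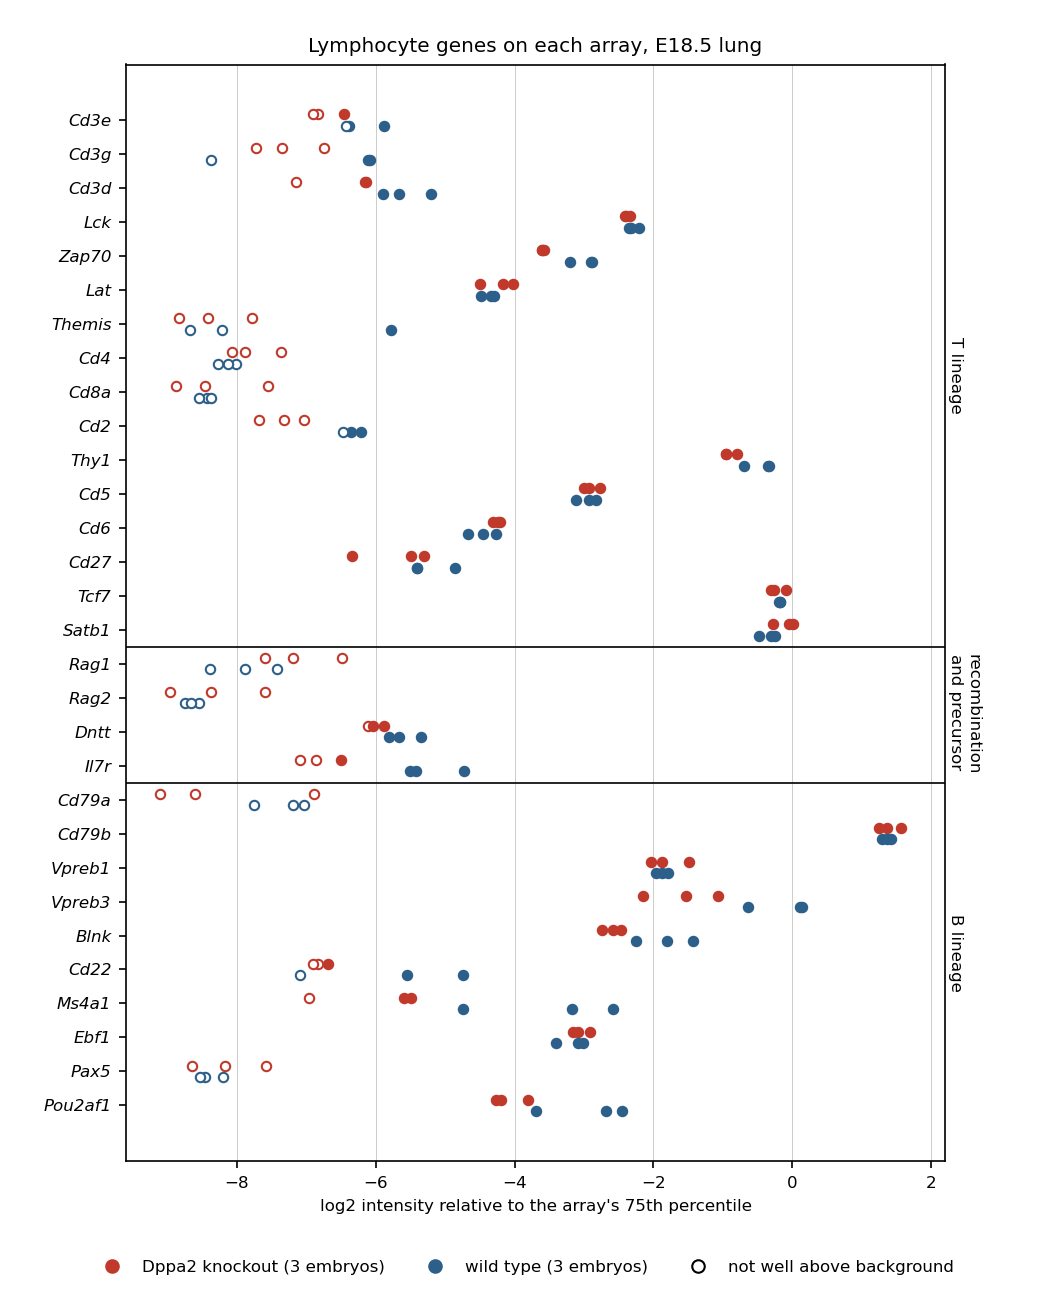
Log2 intensity relative to the array's 75th percentile (x axis) for the 30 members with a probe, 3 knockout (red) and 3 wild type (blue) embryos each; open circles lie at background. Of the 19 members tested, 9 have all knockout points left of all wild type points, against 14.3% of all features. They are Ms4a1, Vpreb3, Pou2af1, Blnk, Il7r, Dntt, Zap70, Thy1 and Cd3d. Rag1, Rag2, Cd4, Cd8a, Cd79a and Pax5 are open throughout. Positions of different genes are not comparable, since they come from different probes.

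Several genes that define developing thymocytes were at background while other T lineage genes were read. Rag1 and Rag2, the recombinase, and Cd4 and Cd8a, the coreceptors, were below background on all 6 arrays, Rag1 at 2 probes and Cd8a at 3. Themis, a signalling protein of thymocytes, was above background on 1 wild type array and no knockout array. Of the Cd3 chains, Cd3g was above background on no knockout array and on 2 wild type arrays, Cd3e on 1 knockout and 2 wild type arrays, and Cd3d on 2 knockout and 3 wild type arrays. Cd2, an adhesion receptor of T and NK cells, was above background on no knockout array and on 2 wild type arrays. Its probe read -7.32, -7.03 and -7.68 in the knockout lungs and -6.36, -6.48 and -6.21 in the wild type lungs, all near the floor.

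Among the B lineage genes, Cd79b, Vpreb1, Vpreb3, Blnk, Ebf1 and Pou2af1 lay above background on all 6 arrays, and others did not. Cd79a, a signalling chain of the B cell receptor, and Pax5, the factor that fixes B lineage identity, were below background on all 6 arrays at their single probes. Cd22, an inhibitory receptor of B cells, was above background on 1 knockout and 2 wild type arrays. It read -6.83, -6.69 and -6.91 in the knockout lungs and -5.56, -4.75 and -7.10 in the wild type lungs, so the high values are those of wild types 1 and 2 and wild type 3 lies with the knockouts. The other Cd22 probe was below background throughout. Dim probes bound these levels and do not show that a transcript is missing.

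The 4 B lineage genes Ms4a1, Vpreb3, Pou2af1 and Blnk were lower in every knockout lung than in every wild type lung, but none of them passed the threshold (limma, Benjamini-Hochberg adjusted p under 0.05 over all 19867 features). Of all features 1.34% passed, 144 higher and 122 lower (88 and 230 with median scaling, which moves the median of all features to -0.12), and 14.3% had knockout values below every wild type value. In whole lung RNA, fewer cells of a type and less RNA per cell cannot be told apart. Ms4a1 encodes Cd20, a surface protein of B cells. It had levels of -6.96, -5.60 and -5.50 in the knockout lungs, with 2 of the 3 arrays above background, against -2.59, -3.18 and -4.75 in the wild type lungs. Wild types 1 and 2 were high, and wild type 3 lay closer to the knockouts than to them. The difference was -2.52 on the log2 scale (SE 0.61, 95% confidence interval -3.95 to -1.08, 5.73-fold, n = 3 each, limma adjusted p = 0.0757).

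Vpreb3 encodes a chain that associates with the B cell receptor during its assembly. Its levels were -2.14, -1.07 and -1.53 in the knockout lungs and 0.14, 0.11 and -0.64 in the wild type lungs, with no overlap and with wild type 3 the lowest of its group. The difference was -1.45 (SE 0.32, 2.73-fold, limma adjusted p = 0.0658). Its other probe, above background on all 6 arrays, differed by -1.26, with levels of -4.46, -3.57 and -4.01 in the knockout lungs and -2.47, -2.63 and -3.15 in the wild type lungs. These are 2 probes of 1 transcript, and the same embryos stand high and low at both.

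Pou2af1, the coactivator of octamer-binding factors in B cells, had levels of -4.27, -3.81 and -4.20 in the knockout lungs and -2.45, -2.69 and -3.69 in the wild type lungs. Wild type 3 lay just above the highest knockout. The difference was -1.15 (SE 0.32, limma adjusted p = 0.0944). Blnk, an adaptor between the B cell receptor and its kinases that macrophages also express, read -2.59, -2.74 and -2.47 in the knockout lungs and -1.44, -1.80 and -2.26 in the wild type lungs. Again wild type 3 was the lowest of its group, and the difference was -0.77 (SE 0.21, limma adjusted p = 0.0924).

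These values depended on the processing and on which wild type arrays were used. With normexp background correction Ms4a1 was -1.11 and Pou2af1 -0.72. Without wild type 3 the differences of Ms4a1, Vpreb3, Pou2af1 and Blnk were -3.14, -1.71, -1.52 and -0.98, and all 4 passed (limma adjusted p = 0.0225, 0.031, 0.0166 and 0.0261). At that setting 1926 of 20062 features passed, 643 of them lower, against 266 with all embryos. With the file name number as a random block, where 1697 features passed, Ms4a1, Vpreb3 and Blnk also passed (limma adjusted p = 0.0384, 0.035 and 0.0479). Wild types 1 and 2 share a number that holds no knockout, and knockouts 1 and 2 a number that holds no wild type. Wild type 3 and knockout 3 share the remaining number. The block's consensus correlation was negative (-0.20), so passes under it are not read as firmer than the main fit. Over all alternatives tested their adjusted p-values reached up to 0.747, 0.733, 0.78 and 0.766. Without wild types 1 and 2, the arrays with Y-linked signal, the differences were -1.27, -0.94, -0.40 and -0.34. Between knockout 3 and wild type 3 alone they were -0.75, -0.88, -0.51 and -0.21, and on the slide that held knockout 3 with wild types 1 and 2 they were -2.62, -1.65, -1.63 and -0.85. All are negative, which was fixed in advance for such choices of embryos, since the groups did not overlap. For Ms4a1, Vpreb3, Pou2af1 and Blnk the size is smaller wherever wild types 1 and 2 are left out.

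**Figure D2:**
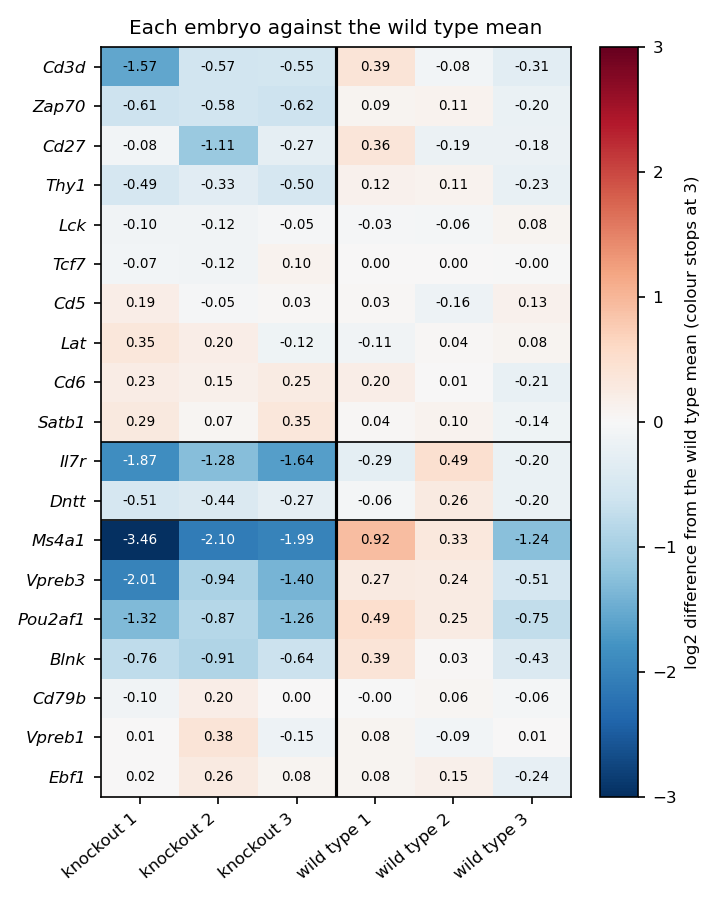
Log2 difference of each embryo (columns, 3 knockouts then 3 wild types) from the mean of the 3 wild types, for the 19 members tested (rows, in 3 blocks: T lineage, recombination and precursor, B lineage). Ms4a1 ranges from -3.46 in knockout 1 to 0.92 in wild type 1, with wild type 3 at -1.24, while Cd79b stays between -0.10 and 0.20.

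The remaining B lineage genes above background had groups that overlapped. Cd79b, the partner chain of Cd79a, had levels of 1.25, 1.56 and 1.36 in the knockout lungs and 1.36, 1.42 and 1.30 in the wild type lungs, a difference of 0.03 (95% confidence interval -0.25 to 0.31). Its probe lay well above background on every array while that of Cd79a lay on none. Vpreb1, a surrogate light chain of B cell precursors, had levels of -1.87, -1.49 and -2.03 in the knockout lungs and -1.80, -1.96 and -1.87 in the wild type lungs. The difference was 0.08 (-0.29 to 0.45), so a change of the size estimated for Vpreb3 lies outside its interval. Ebf1, a factor of early B cells that stromal cells also express, read -3.15, -2.91 and -3.08 in the knockout lungs and -3.09, -3.01 and -3.41 in the wild type lungs, a difference of 0.12 (-0.21 to 0.45).

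Il7r was the 1 member that passed the threshold, and 0.614% of all features tested were called lower. It encodes the receptor for interleukin 7, a growth factor of T and B cell precursors and of innate lymphoid cells. Its levels were -7.09, -6.50 and -6.86 in the knockout lungs, where only knockout 2 lay above background, and -5.51, -4.73 and -5.41 in the wild type lungs, all above it. The groups did not overlap, and wild type 1 was the lowest of its group. Il7r fell by 1.60 in the knockout lungs (SE 0.24, 95% confidence interval -2.18 to -1.02, limma adjusted p = 0.0375). Since 2 of the 3 knockout readings lay at background, and the gene was tested through its wild type arrays, the size of this difference is uncertain.

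The call for Il7r was not stable. Its direction stayed the same, which leaving out embryos could not change, since the groups did not overlap. It was lost without wild type 1 (-1.75), wild type 2 (-1.35), knockout 1 (-1.46), knockout 2 (-1.76) or knockout 3 (-1.58), with adjusted p-values of 0.113, 0.0859, 0.104, 0.0689 and 0.0566. It stood without wild type 3 (-1.70). The difference was -1.40 without wild types 1 and 2 and -1.45 between knockout 3 and wild type 3. With normexp background correction, which adds an offset to every signal and weighs most on dim ones, it was -0.34 (adjusted p = 0.0992). Over all alternatives its adjusted p ran from 0.0199 to 0.37. A second Il7r probe was below background on all 6 arrays.

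Dntt, which adds bases at the joints of rearranged receptor genes, was close to the floor. It read -6.12, -6.04 and -5.88 in the knockout lungs, 2 of 3 above background, and -5.67, -5.35 and -5.81 in the wild type lungs. The groups did not overlap but nearly touched, and the difference was -0.40 (SE 0.15, limma adjusted p = 0.154). Its other 2 probes were at background on all wild type arrays, and one of them lay above it on 1 knockout array. Their readings, almost all at background, differed in the opposite direction, by 1.502 and 0.897.

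Of the 10 T lineage genes tested, 0 passed the threshold (limma; 3 had an unadjusted p under 0.05, against 25.7% of all features). Zap70, the kinase that binds the stimulated T cell receptor, came nearest. It read -3.61, -3.58 and -3.61 in the knockout lungs and -2.90, -2.88 and -3.20 in the wild type lungs. The knockouts lay close together and below all wild types. The difference was -0.61 (SE 0.12, 1.52-fold, limma adjusted p = 0.059), and it was -0.40 without wild types 1 and 2. It passed without wild type 3 (-0.71, adjusted p = 0.0225), with median scaling (-0.74, adjusted p = 0.0456) and under the random block for file name number (-0.63, adjusted p = 0.0327). The limit given above for that block applies here too. Across everything tried, its adjusted p ran from 0.0225 to 0.716.

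Cd3d had levels of -7.16, -6.16 and -6.14 in the knockout lungs and -5.20, -5.67 and -5.90 in the wild type lungs. Knockout 1, at background, was the low value, and the difference was -0.89 (SE 0.31, limma adjusted p = 0.138), or -0.23 with normexp. Thy1, a surface protein of T cells that nerve and stromal cells also carry, read -0.96, -0.80 and -0.96 in the knockout lungs and -0.34, -0.35 and -0.69 in the wild type lungs. The groups did not overlap, wild type 3 being the lowest wild type, and the difference was -0.44 (SE 0.13, limma adjusted p = 0.109). It passed without wild type 3 (-0.56, adjusted p = 0.0415; 0.81 at the highest over the alternatives). A second Thy1 probe, above background on 1 knockout and 3 wild type arrays, differed by -0.58.

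The other 7 T lineage genes tested had overlapping groups. Lck, the kinase bound to the coreceptors, had levels of -2.39, -2.41 and -2.34 in the knockout lungs and -2.32, -2.36 and -2.21 in the wild type lungs, a difference of -0.09 (95% confidence interval -0.32 to 0.15). Tcf7, a nuclear factor of T cell commitment that other tissues also use, differed by -0.03 (-0.28 to 0.22). Its other probe, also above background throughout, differed by 0.16.

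The adaptor Lat differed by 0.14 (95% confidence interval -0.20 to 0.49), the surface receptors Cd5 by 0.06 (-0.24 to 0.35) and Cd6 by 0.21 (-0.10 to 0.52), and the chromatin organiser Satb1 by 0.24 (-0.06 to 0.53). Cd27, a costimulatory receptor, had levels of -5.31, -6.34 and -5.49 in the knockout lungs and -4.87, -5.41 and -5.41 in the wild type lungs. Knockout 2 is the low value, and the difference was -0.48 (-1.17 to 0.20). The intervals of Lck, Tcf7, Lat, Cd5, Cd6 and Satb1 all lie within 0.53 of 0, so larger differences fall outside them. The signs of Lat, Cd5, Vpreb1 and Ebf1 turned with quantile normalization, and those of Cd5, Cd79b, Vpreb1 and Ebf1 with median scaling.

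**Figure D3:**
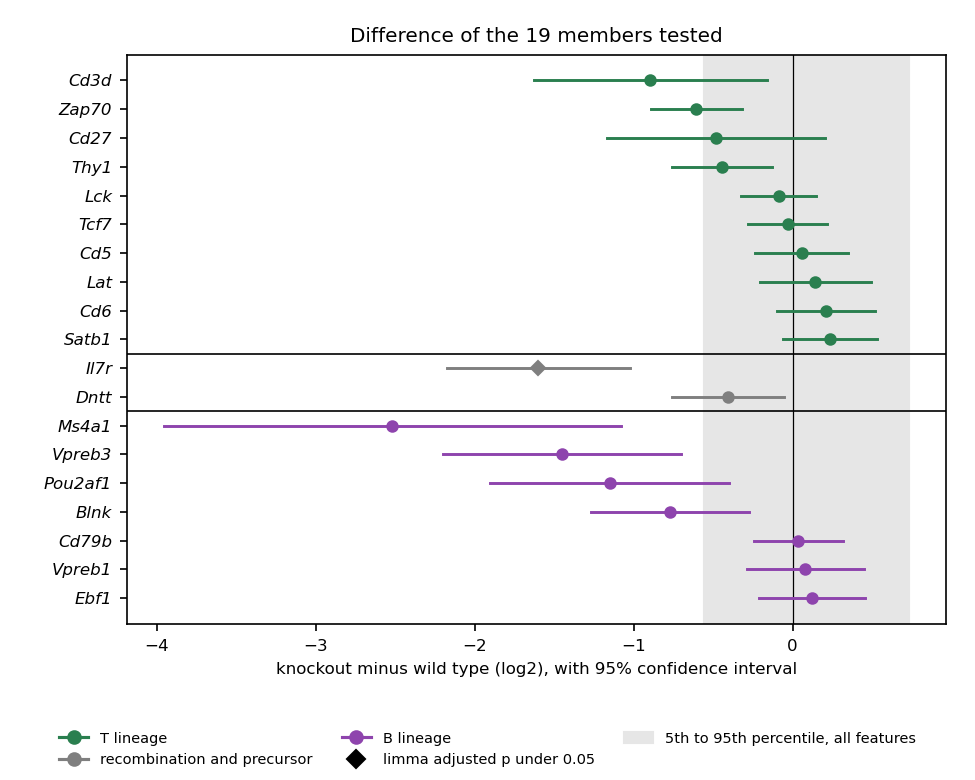
Knockout minus wild type difference (log2, x axis) with its 95% confidence interval for the 19 members tested, grouped as T lineage, recombination and precursor, and B lineage. The grey band spans the 5th to 95th percentile of all features (-0.56 to 0.73). Ms4a1, Vpreb3, Pou2af1, Blnk, Il7r, Cd3d and Zap70 lie left of the band, and Il7r (diamond) alone passed the threshold.

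Set side by side, the B lineage list had a lower median difference than the T lineage list. The 10 T lineage genes tested had a median difference of -0.06 and a range of -0.89 to 0.24, with 6 negative. The 7 B lineage genes tested had a median of -0.77 and a range of -2.52 to 0.12, with 4 negative. The median over all 19867 features was 0.01, with 48.9% negative. The 2 medians lay 0.71 apart. As a median over the tested genes, each array's deviation from the wild type mean was -0.07, -0.12 and -0.08 for T genes in knockouts 1, 2 and 3, and 0.07, 0.01 and -0.16 in wild types 1, 2 and 3. For B genes it was -0.76, -0.87 and -0.64 in the knockouts, and 0.27, 0.15 and -0.43 in the wild types.

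This gap between the lists rests on the choice of embryos and of genes. It was 1.21 without wild type 3, 0.15 without wild types 1 and 2, and 0.095 between knockout 3 and wild type 3. It was 0.34 over genes above background on all 6 arrays, which drops Ms4a1 from the B list and Cd3d from the T list. With no filter it was 0.44, the T lineage median being -0.38 over 16 genes. With probes above background on at least 1 array it was 0.46, the T lineage median being -0.43 over 14 genes. With the recombination and precursor genes counted with the T lineage it was 0.52. Both lists are medians over unlike genes: in the B list Ms4a1, Vpreb3, Pou2af1 and Blnk had groups that did not overlap, without passing the threshold, while the groups of Cd79b, Vpreb1 and Ebf1 overlapped.

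In all, 9 of the 19 members tested had knockout values below every wild type value, and 0 had knockout values above every wild type value. Over all features 14.3% were separated downward and 17% upward, 31.3% in all. The same 9 members had an unadjusted p under 0.05 with lower knockout values, against 10.3% of all features (limma). The members Ms4a1, Il7r, Vpreb3 and Pou2af1 had differences below -1, against 1.62% of all features. The filter favours such genes, since Il7r, Dntt, Cd3d and Ms4a1 passed it through the wild type arrays and not through all knockout arrays. Of the 15 members above background on all 6 arrays, 5 were separated downward, against 14% of all such features. In 8 of the 9 separated members, wild type 3 was the lowest wild type, the exception being Il7r.

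Further genes of these lineages were examined as lists. Of 21 further B cell genes 11 could be tested and 11 had negative differences, with a median of -0.51, where 48.9% of all features were negative. Of these 1 was called lower, where 0.614% of all features were, and 7 had an unadjusted p under 0.05 (limma), against 25.7% of all features. Spib, an Ets factor of B cells and plasmacytoid dendritic cells, read -6.67, -5.80 and -5.84 in the knockout lungs, 2 of 3 above background, and -3.57, -4.07 and -4.66 in the wild type lungs. Spib was lower by 2.00 (SE 0.33, limma adjusted p = 0.0463), with wild type 3 the lowest wild type. Its call was not followed over the alternatives. Tnfrsf13c, the receptor for the B cell survival factor BAFF, differed by -1.95 and Cd72, an inhibitory B cell receptor, by -1.29, and neither passed (limma adjusted p = 0.0618 and 0.0781). Tnfrsf13c lay above background on 1 and Cd72 on 2 of the 3 knockout arrays, so these genes, like Spib, were tested through the wild type arrays, where they were high.

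Of 25 further T cell and thymocyte genes 16 were tested, 11 had negative differences and 0 passed (limma; 3 had an unadjusted p under 0.05), with a median of -0.07. The smallest p-values were those of Sla2, an adaptor that dampens T cell receptor signals (-0.80), Bcl11b, a factor of T lineage commitment that skin and nerve also use (0.55), and Prkcq, a kinase downstream of the receptor (-0.40). Cd28, Ctla4, Trat1, Sh2d1a, Arpp21, Ubash3a and Gimap3 were below background on all 6 arrays. Among 16 genes of NK and innate lymphoid cells 8 were tested and 0 passed (limma; 0 at an unadjusted p under 0.05), with a median of -0.08. The receptor gene Ncr1 and the pore-forming perforin gene Prf1 were below background throughout.

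The list of 12 thymic epithelium genes had 8 tested, 3 negative and 5 positive, with a median of 0.29. Foxn1, the master factor of that epithelium, Psmb11, its proteasome subunit, and Pax1 were below background on all 6 arrays. Aire, the regulator of tissue antigens in the thymic medulla, differed by 2.88, with levels of -3.87, -2.48 and -3.72 in the knockout lungs and -5.84, -7.46 and -5.40 in the wild type lungs, 2 of 3 above background. All knockouts lay above all wild types, and it did not pass (limma adjusted p = 0.059).

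Of 13 growth and homing factors of lymphocytes tested, 0 passed (limma; 1 at an unadjusted p under 0.05), with a median of -0.02. Ccl21a, a chemokine that draws lymphocytes to lymphatics and lymph nodes, had levels of 1.21, 2.07 and 1.79 in the knockout lungs and 2.81, 2.74 and 2.29 in the wild type lungs, a difference of -0.92 that did not pass (limma adjusted p = 0.088). Ltb, a lymphotoxin of lymphocytes, differed by -0.67.

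General markers of white blood cells had differences of the same sign as Ms4a1, Vpreb3, Pou2af1 and Blnk. All 12 pan-leukocyte genes had negative differences with a median of -0.53, and 0 passed (limma; 9 at an unadjusted p under 0.05). Over all features 48.9% were negative and 25.7% had an unadjusted p under 0.05 (limma). Ptprc, the Cd45 antigen of all white blood cells, differed by -0.59. The summed intensity of the list, in percent of the 75th percentile, was 1654 to 1998 in the knockout lungs and 1938 to 2685 in the wild type lungs. Wild type 3 had the lowest of the wild type values (1938), below that of knockout 3 (1998). Of 12 macrophage and monocyte genes tested, 10 were negative with a median of -0.25 and 0 passed (limma; 4 at an unadjusted p under 0.05), with sums of 2017 to 2438 in the knockout lungs and 2447 to 3342 in the wild type lungs. No defining gene of either list was at background on all arrays.

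Of 10 neutrophil and mast cell genes tested, 10 were negative with a median of -0.93, where 48.9% of all features were negative. An unadjusted p under 0.05 was reached by 9 (limma), against 25.7% of all features. Called lower were 2, where 0.614% of all features were: S100a8 of neutrophils (-0.98) and the mast cell protease Mcpt4. Mcpt4 was at background on all 3 knockout arrays and on 0 wild type arrays. It was thus tested through the wild type arrays, where it was high. The calls of S100a8 and Mcpt4 were not followed over the alternatives. The sums were 1453 to 1870 in the knockout lungs and 2374 to 3637 in the wild type lungs. The part of these differences in the B lineage differences was not tested. The labels give no sex, and wild type 3 alone among the wild types lacked Y-linked signal, as all knockouts did. With a term for that signal the B lineage median was -0.34. That value rests on wild type 3 as the only wild type, so sex and that embryo cannot be told apart.

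**Figure D4:**
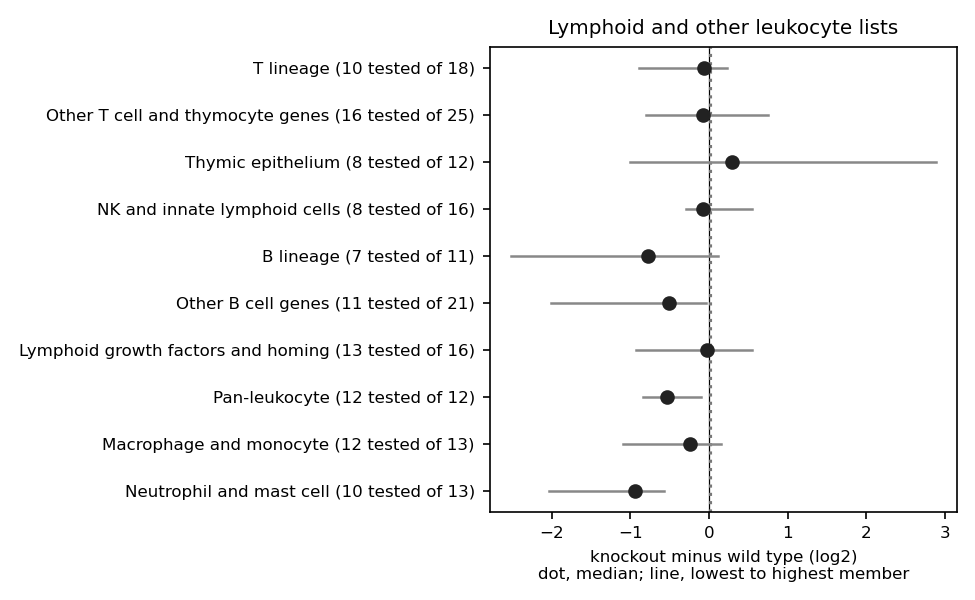
Median (dot) and lowest to highest member (line) of the knockout minus wild type difference (log2, x axis) for 10 gene lists, with the number of genes tested; the dotted line is the median of all features (0.01). The B lineage, other B cell, pan-leukocyte and neutrophil and mast cell lists have medians of -0.77, -0.51, -0.53 and -0.93, and the T lineage, other T cell and NK lists of -0.06, -0.07 and -0.08.

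The members lie on 13 chromosomes. Vpreb1 and Igll1 share chromosome 16 with Dppa2, and Vpreb1 had overlapping groups. Pou2af1 and Cd3d lie on chromosome 9 with Thy1, Ms4a1 and Blnk on chromosome 19 with Dntt, Cd5 and Cd6, Vpreb3 on chromosome 10, Il7r on 15 and Zap70 on 1. The 3 nearest tested genes on either side were examined for Il7r, Vpreb3, Ms4a1, Pou2af1, Blnk and Zap70, chosen after the values were seen. They held 0 called genes, where 1.34% of all features were called. At that share, 0 among so few genes says little about the regions. Their differences ran from -0.12 to 0.67 around Il7r (-1.60), from -0.61 to -0.08 around Vpreb3 (-1.45), and from -0.81 to 0.05 around Ms4a1 (-2.52). Around Pou2af1 they ran from -0.48 to 0.11, around Blnk from -0.40 to 0.24, and around Zap70, at -0.61 itself, from -0.65 to 0.09. The -0.40 beside Blnk is that of Dntt, itself a member.

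**Figure D5:**
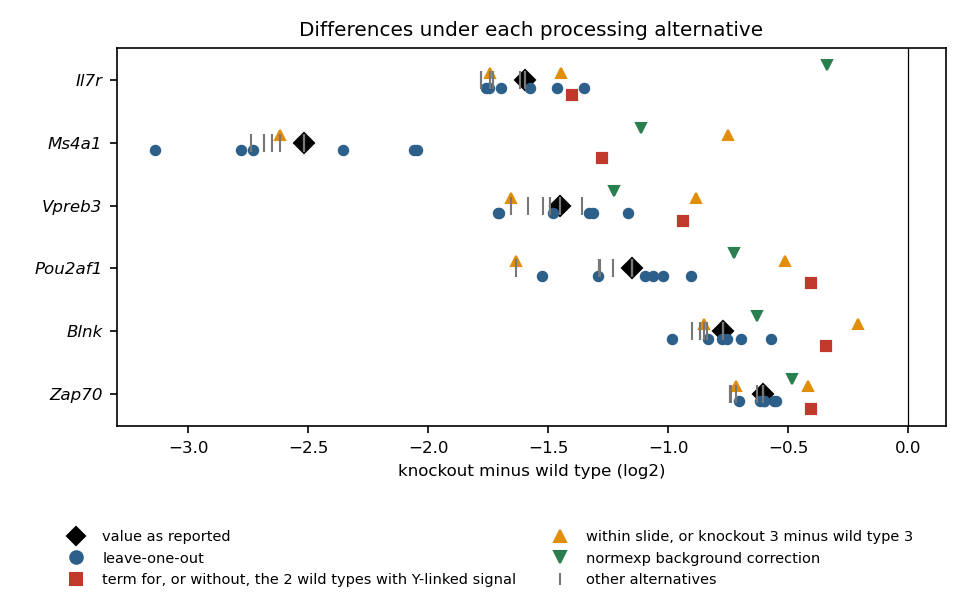
Knockout minus wild type difference (log2, x axis) of 6 members as reported (diamond) and under each processing alternative. No alternative crosses 0 for these 6 genes, and those that leave out embryos could not, since the groups do not overlap. The values without wild types 1 and 2 (red squares) are those closest to 0 for Pou2af1 and Zap70 (both -0.40) and are -1.40 for Il7r, whose value closest to 0 is that with normexp (-0.34).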

How the data were processed

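Lung RNA of 6 embryos was measured on 1-colour Agilent arrays. Per the file headers, Agilent Feature Extraction made the deposited intensity of each spot, background subtracted and detrended within the array, with annotation on mm9. The authors also deposited log2 values made with GeneSpring, per the design text, with no scaling method stated. These matched quantile-normalized scanner values (slope 0.999 to 1.00, r 0.991 to 0.997) once each probe's wild type median was subtracted. Column medians were 0 for wild types and 0.0108, -0.00698 and -0.000844 in knockouts 1, 2 and 3.

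Control spots and 77 to 110 spots per array with an outlier flag were left out, and no spot was saturated. Log2 intensities were set relative to each array's 75th percentile. Of 41174 probes, 26690 (64.8%) were named through RefSeq accessions (GRCm38.p6, used for names, gene order and promoter windows). Each gene was represented by its brightest tested probe. The 2 groups were fitted without covariates by lmFit and eBayes of limma 3.58.1 under R 4.3.3, with two-sided p-values adjusted by Benjamini-Hochberg over 19867 features. The fit was tested on simulated data. The files hold no mean signal, so normexp used the median signal with an offset of 50. Scan and slide coincide, so scan was not a separate block.

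The members and lists were chosen with earlier results of these data known, so lists carry no p. All members are named. From each other list every called gene and the 3 of smallest p could be named; genes named there as at background were chosen after their values were seen. A result for 1 gene of these lists is not reported here. Litters are not given in the labels, and 3 arrays per group limit precision.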

Additional observations from a re-analysis of the deposited data

How the results depend on the processing

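The direction of Il7r, Ms4a1, Vpreb3, Pou2af1, Blnk, Zap70, Thy1 and Cd3d held under every alternative run. Their groups did not overlap, so settings that only left out or selected embryos could not turn it. The call for Il7r was lost in 11 of 18 tested alternatives. Changed features numbered 266, against 28 with no filter, 96 with probes above background on at least 1 array, 25 with slide as a block, 1697 with the file name number as a random block (consensus correlation -0.20), 26 with a term for Y-linked signal, 0 without the 2 arrays that carry it (limma; 1458 at an unadjusted p under 0.05), and 36 to 1926 leaving out each embryo in turn. The embryo numbers did not pair the samples (same-number r -0.02, 0.04 and 0.03); with the replicate block 55 features were called.

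The T lineage median (-0.06) was -0.19 with median scaling and without the 2 arrays with Y-linked signal, -0.38 with no filter, -0.43 with 1 array above background, -0.25 with the precursor genes, and -0.25 to -0.030 leaving out embryos. The B lineage median (-0.77) was -0.37 over genes above background on all 6 arrays, -0.34 with the Y-linked term or without those arrays, -0.21 between knockout 3 and wild type 3, -1.15 without members known from other lung cells, and -1.25 to -0.57 leaving out embryos. T minus B (0.71) was 0.34 over genes on all 6 arrays, 0.22 with the Y-linked term, 0.15 without those arrays, 0.095 between knockout 3 and wild type 3, 1.06 without members known from other lung cells, and 0.50 to 1.21 leaving out embryos. With no filter T minus B was 0.44, and with 1 array above background 0.46.

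Small differences turned sign. Cd5, Cd79b, Vpreb1 and Ebf1 were -0.075, -0.10, -0.052 and -0.012 with median scaling. Lat, Cd5, Vpreb1 and Ebf1 were -0.014, -0.065, -0.0058 and -0.0078 with quantile normalization, and -0.013, -0.064, -0.0052 and -0.0080 in the authors' deposited values. Lat and Cd5 were -0.033 and -0.012 with normexp. Tcf7 was 0.063 as a mean of probes. With slide as a block Lat, Tcf7, Cd79b, Vpreb1 and Ebf1 were -0.084, 0.094, -0.027, -0.15 and -0.035. Cd5 was -0.070 with the Y-linked term and without those arrays. Leaving out embryos, Cd5 ran from -0.021 (without wild type 2) to 0.12, Tcf7 from -0.094 to 0.012, Cd79b from -0.051 to 0.10 and Vpreb1 from -0.073 to 0.20; knockout 2 turned the last 3, and knockout 1 also turned Cd5. The cause was not tested. Scan coincides with slide and was not run apart. Signal near background limits Il7r, Dntt, Cd3d and Ms4a1.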
